A study of Mus musculus with 24 samples.

Results

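Genes that restrain Wnt signalling or are read as its targets were followed in 24 RNA-seq libraries of mouse mammary tumours: Axin2, Nkd1, Nkd2, Notum, Wif1, Rnf43, Znrf3, Apcdd1, Sp5 and Tnfrsf19. They were picked by gene symbol, each symbol matched 1 row, and they make up 10 of the 47729 genes in the table. All tumours grew from pieces of spontaneous mammary tumours of MMTV-Wnt1 mice (B6SJL-Tg(Wnt1)1Hev/J), whose Wnt1 transgene is under the promoter of the mouse mammary tumour virus and is active mainly in mammary epithelium. All hosts were C57BL/6J mice, so stroma of the host and tumour cells of the donor are read together. How many donor tumours were used, the vehicle schedule and whether the libraries of 1 group come from separate hosts are not given in the labels. From a tumour volume of about 200 mm3, on a day called day 1, the hosts received oral E7386, 50 or 25 mg/kg at each of 2 doses a day, or vehicle. Tumours were taken on day 4, after 3 days of dosing, or on day 8, after 7 days. Each day had 4 libraries at 50 mg/kg, 4 at 25 mg/kg and 4 from vehicle tumours. E7386 is known as a modulator of the interaction between β-catenin and its coactivator CBP, so that the comparison of dosed with vehicle tumours bears on genes that β-catenin drives.

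Wnt proteins bind Frizzled and LRP receptors at the cell surface, and the signal stops the destruction of β-catenin. β-catenin then joins TCF and LEF factors on DNA and switches on target genes, several of which encode brakes on the same pathway. The brakes act outside the cell (Notum cuts the lipid from Wnt proteins, Wif1 binds them), at the membrane (Rnf43 and Znrf3 are ubiquitin ligases that remove Frizzled, Apcdd1 blocks the receptor) or inside it (Axin2 is a scaffold of the β-catenin destruction complex, Nkd1 and Nkd2 bind Dishevelled). Sp5 is a zinc finger transcription factor and Tnfrsf19, also called Troy, a receptor of the TNF receptor family, and both are widely used as β-catenin target genes. In the mammary gland the pathway is known for its part in basal and stem cell maintenance.

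Start site windows, 250 bases before to 50 after each start, were available from RefSeq on build GRCm38.p6 for 7 of the 10 genes, as 9 windows. The windows of Axin2, Nkd2, Wif1 and Sp5 are shown because they belong to the member used most widely as a readout, the member with the highest level, a member that rose and the member with the lowest level. They are written 5′ to 3′ on the strand of the gene, and capitals mark the letters CTTTG, the core of the TCF and LEF motif, on either strand (CAAAG on the other).
Axin2, chr11:108920099-108920398, plus strand: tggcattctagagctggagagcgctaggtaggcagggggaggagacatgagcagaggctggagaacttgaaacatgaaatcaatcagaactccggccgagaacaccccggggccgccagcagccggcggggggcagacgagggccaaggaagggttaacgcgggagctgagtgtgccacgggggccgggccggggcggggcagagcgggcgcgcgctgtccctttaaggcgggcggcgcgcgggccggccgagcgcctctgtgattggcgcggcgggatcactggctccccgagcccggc
Nkd2, chr13:73847582-73847881, minus strand: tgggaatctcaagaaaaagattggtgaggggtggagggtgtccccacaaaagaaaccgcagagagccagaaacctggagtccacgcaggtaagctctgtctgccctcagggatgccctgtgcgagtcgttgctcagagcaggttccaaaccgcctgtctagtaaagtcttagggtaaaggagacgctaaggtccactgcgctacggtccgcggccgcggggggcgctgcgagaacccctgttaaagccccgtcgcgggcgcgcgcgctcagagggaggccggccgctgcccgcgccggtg
Wif1, chr10:121033754-121034053, plus strand: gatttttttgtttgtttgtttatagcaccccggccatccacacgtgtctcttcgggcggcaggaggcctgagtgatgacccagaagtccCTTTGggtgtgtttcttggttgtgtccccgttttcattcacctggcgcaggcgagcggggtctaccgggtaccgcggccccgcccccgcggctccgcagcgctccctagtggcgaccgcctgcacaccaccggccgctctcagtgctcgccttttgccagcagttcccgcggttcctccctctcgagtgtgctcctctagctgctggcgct
Sp5, chr2:70474673-70474972, plus strand: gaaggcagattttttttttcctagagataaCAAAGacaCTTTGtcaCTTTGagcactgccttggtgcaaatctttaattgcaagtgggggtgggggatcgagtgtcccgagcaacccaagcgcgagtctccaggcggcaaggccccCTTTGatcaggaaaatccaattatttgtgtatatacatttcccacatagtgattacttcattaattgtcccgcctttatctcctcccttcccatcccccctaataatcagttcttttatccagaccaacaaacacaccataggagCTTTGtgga
The Sp5 window held CTTTG 5 times, and 1 of these lies in the longer form CTTTGAT, which begins at base -104 relative to the start. The Wif1 window held CTTTG 1 time and the longer form 0 times, and the windows of Axin2 and Nkd2 held neither. Of the other windows, those of Nkd1 and Rnf43 and the first of Tnfrsf19 held neither, and the second of Tnfrsf19 held CTTTGAT 1 time. Among 32851 windows of the same length, 53.9% held CTTTG and 3.73% held CTTTGAT, each on either strand, and 1.4% held CTTTG 4 or more times. Some RefSeq starts lie downstream of the gene start in GENCODE M21. The distance was 6279 bases for Nkd1, 37175 for the second window of Rnf43 and 8503 for the second of Tnfrsf19. A match describes letters in a window and shows no binding, and no match says only that these letters are not in this window.

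Between 14496 and 15127 genes reached 1 TPM (a transcript level corrected for gene length and scaled to the same total in each library). The labelled tissue showed its markers: 12 luminal epithelial markers summed to 1274 to 2432 TPM per library and 10 basal ones to 2568 to 5248 TPM, and no group had any of these markers at 0. TPM keeps no read depth, so counting error is unknown. The library day 8 vehicle replicate 4 stood apart from the other vehicle libraries of that day for several members, and members' values are also given without it where they moved most. Skeletal muscle markers differed widely between libraries, from 4.57 to 717 TPM summed over 7 genes.

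The members spanned a wide range of levels. Nkd2 averaged 609 TPM over the 24 libraries, more than 98.8% of the 15736 genes tested, and Wif1 averaged 266 TPM. Below them came Tnfrsf19 (56.4 TPM), Axin2 (43.4 TPM), Rnf43 (40.1 TPM), Apcdd1 (27.8 TPM), Znrf3 (22.6 TPM), Notum (20.6 TPM) and Nkd1 (9.23 TPM). Some neighbours in this order were not apart in every library: Tnfrsf19 exceeded Axin2 in 21 of 24, Axin2 exceeded Rnf43 in 16, Rnf43 exceeded Apcdd1 in 23, Apcdd1 exceeded Znrf3 in 19 and Znrf3 exceeded Notum in 17. Nkd2 held 55.6% and Wif1 24.3% of the summed level of the 10 genes. The paralogs were unequal: Nkd2 stood 41.2 to 113-fold above Nkd1 within a library, and Rnf43 stood 1.37 to 2.08-fold above Znrf3. Sp5 was listed at 0 in 14 libraries and at 0.10 TPM at most, with all 4 libraries of 50 mg/kg on day 8 at 0, so it failed the filter of 1 TPM in at least 4 libraries. The remaining 9 members passed, and all were at 6.35 TPM or more in each library. Relative to its own level, Znrf3 varied least between libraries (1.54-fold from lowest to highest) and Notum most (4.28-fold).

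**Figure D1:**
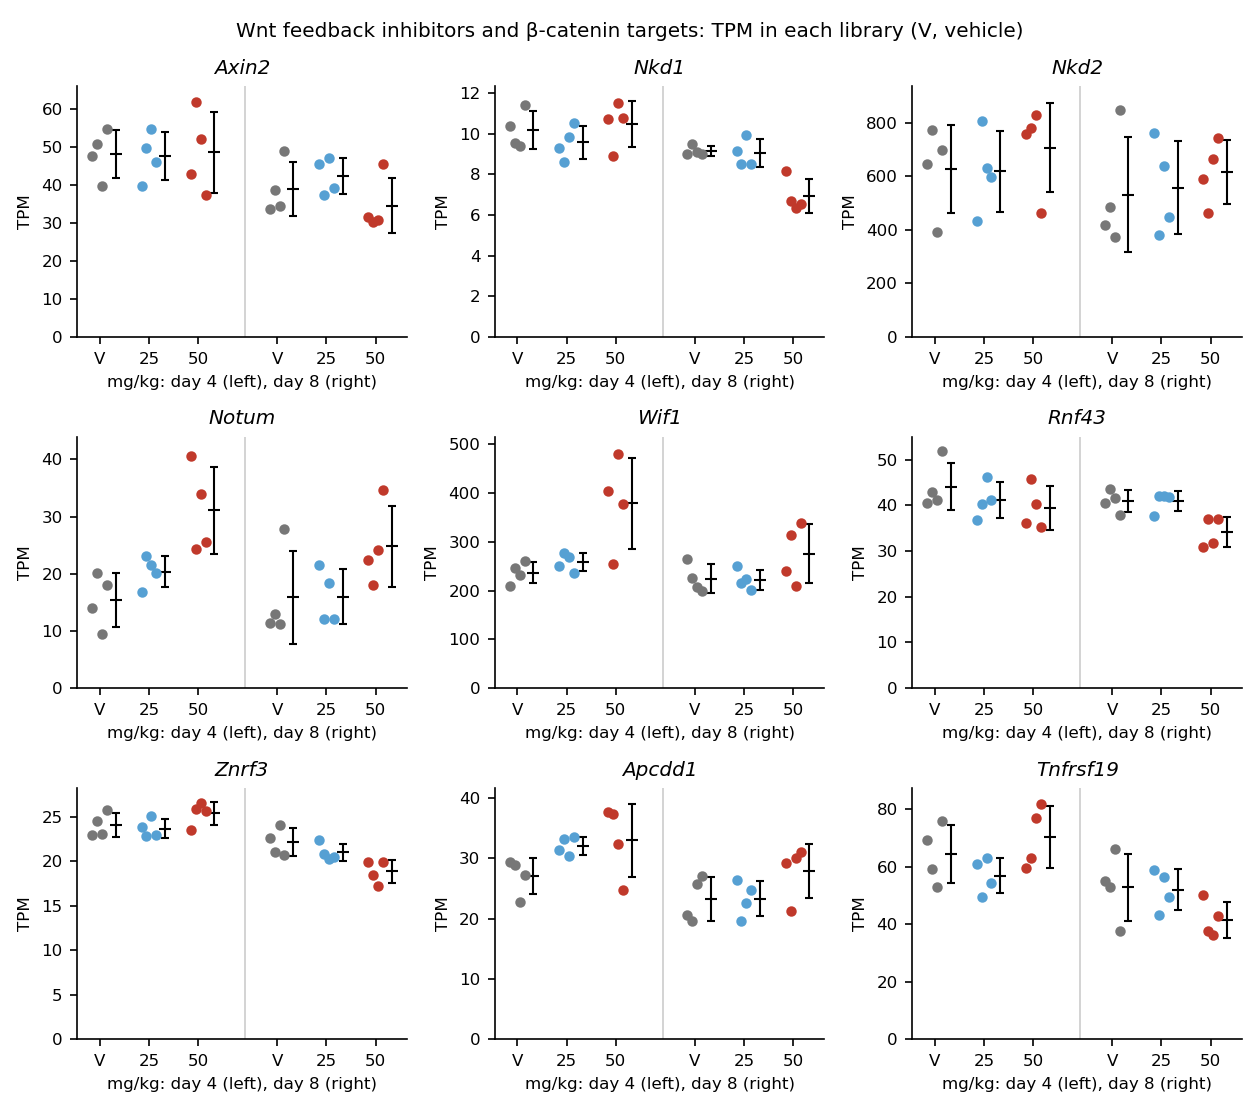
TPM of the 9 measurable members in each library (points), by dose and day, with the group mean and SD to the right of the points (n = 4 each). Notum and Wif1 are highest at 50 mg/kg on day 4, where Notum reached 40.6 TPM and Wif1 reached 481 TPM, while Nkd1, Rnf43 and Znrf3 at 50 mg/kg on day 8 lie below the vehicle libraries of that day.

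After 3 days at 50 mg/kg, the secreted inhibitors Notum and Wif1 rose, and no member fell. Notum was about 2-fold and Wif1 about 1.56-fold higher than in vehicle tumours on the log2(TPM + 1) scale. By limma with Benjamini-Hochberg adjustment over all genes tested, 2 of 9 members passed an adjusted p of 0.05 upward and 0 downward, beside 9.26% of all 15736 genes in either direction and 4.95% in the upward and 4.31% in the downward direction. The median log2 fold change of the 9 was 0.13, against 0.03 over all genes. Among all genes, 53.5% of the calls were upward, and 42.9% after quantile normalization.

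Notum, the Wnt deacylase gene, had 40.6, 24.3, 34.0 and 25.6 TPM at 50 mg/kg on day 4, against 14, 20.05, 9.48 and 18.1 TPM in vehicle. All 4 libraries at 50 mg/kg lay above all vehicle libraries. The log2 fold change was 0.99 (SE 0.27, adjusted p = 0.0269 by limma). It was the only member whose groups did not overlap in this comparison, where 10.4% of all genes lay wholly above vehicle. The size was 0.79 to 1.12 when each library was left out in turn, but the call ended without vehicle replicate 3 (adjusted p = 0.104), without 50 mg/kg replicate 1 (0.0817) or 3 (0.0787) and without vehicle replicate 1 (0.0644). With no filter the call ended as well (0.0518).

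Wif1, whose product binds Wnt proteins outside the cell, had 404, 255, 481 and 377 TPM at 50 mg/kg on day 4, against 209, 247, 232 and 260 TPM in vehicle. Replicate 2 at 50 mg/kg lay within the vehicle range, and the other 3 lay above it. The log2 fold change was 0.65 (SE 0.16, adjusted p = 0.0138 by limma), and 0.52 with an adjusted p of 0.0621 without 50 mg/kg replicate 3.

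On day 8 the secreted inhibitors had smaller differences that did not pass. Notum had 22.4, 17.99, 24.2 and 34.7 TPM at 50 mg/kg, against 11.5, 12.9, 11.1 and 27.9 TPM in vehicle. Vehicle replicate 4, at 27.9 TPM, exceeded 3 of the 4 libraries at 50 mg/kg, and the other 3 vehicle libraries lay below all of them. The log2 fold change was 0.68 (SE 0.27, adjusted p = 0.185 by limma), and 0.97 with an adjusted p of 0.0209 without vehicle replicate 4. Wif1 had 241, 314, 210 and 338 TPM at 50 mg/kg, against 266, 225, 208 and 200 TPM in vehicle (0.28, SE 0.16, adjusted p = 0.364). The Wif1 groups overlapped.

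Averaged over both days, Notum had a log2 fold change of 0.83 (SE 0.19, adjusted p = 0.00869) and Wif1 of 0.46 (SE 0.11, adjusted p = 0.0112), both by limma. Both calls were kept in 23 of 23 alternatives, with adjusted p up to 0.029 for Notum and 0.0439 for Wif1. Rnf43 was the third member to pass in this average, downward, so that 2 of 9 members passed upward and 1 downward, beside 12% of all genes (6.22% upward and 5.77% downward). Without day 8 vehicle replicate 4 the same 3 and Apcdd1 passed, 4 of 9 members beside 21.4% of all genes.

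Proliferation markers fell on day 4: 5 of 7 passed downward, beside 4.31% of all genes. Their summed level was 362 to 465 TPM at 50 mg/kg and 559 to 699 TPM in vehicle. Macrophage markers summed to 772 to 1946 TPM at 50 mg/kg and 514 to 1213 TPM in vehicle on day 4. Of these 8 markers 0 passed the threshold in limma, and 5 had an unadjusted p under 0.05, beside 25.9% of all genes. Within groups, over the 24 libraries, deviations of Notum from the group mean had a Pearson r of -0.67 with those of the proliferation markers, while Wif1 had -0.07, and with the macrophage markers Notum had 0.25 and Wif1 -0.29. Of the 10 basal epithelial markers 1 passed upward on day 4, beside 4.95% of all genes. The part of these measures in the rise of Notum and Wif1 was not tested. In bulk tumour RNA, a change in the share of the cells that make a transcript and a change in RNA per cell cannot be told apart.

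**Figure D2:**
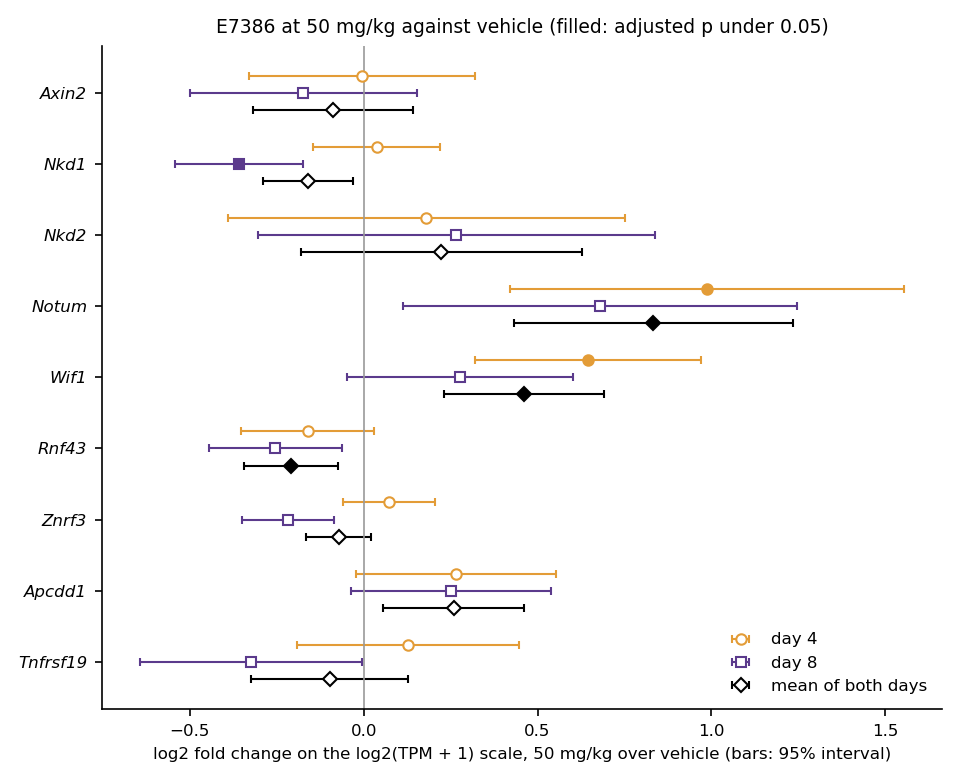
Log2 fold change of each member at 50 mg/kg over vehicle on day 4, on day 8 and averaged over both days, with 95% intervals; filled symbols passed an adjusted p of 0.05 in limma. Notum and Wif1 lie to the right of 0 at both times, as do Nkd2 and Apcdd1. The day 8 interval of Wif1 spans 0 (-0.05 to 0.60). Axin2 and Nkd2 have intervals that span 0 throughout, and Nkd1 is the filled symbol of day 8.

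Inside the cell, Axin2, the scaffold of the destruction complex, did not pass at either time. It had 42.9, 61.8, 52.1 and 37.5 TPM at 50 mg/kg on day 4, against 47.5, 50.8, 39.8 and 54.7 TPM in vehicle. The libraries at 50 mg/kg spanned the whole vehicle range. The log2 fold change was -0.01 with a 95% interval of -0.33 to 0.32 (adjusted p = 0.988 by limma), and its sign was positive without vehicle replicate 2 or 4 or 50 mg/kg replicate 1 or 4. On day 8 Axin2 had 31.5, 30.4, 30.9 and 45.4 TPM at 50 mg/kg, against 33.7, 38.8, 34.4 and 48.9 TPM in vehicle. In 3 of the 4 libraries at 50 mg/kg the level was below every vehicle library, and 1 library was high in each group. The log2 fold change was -0.17 with an interval of -0.50 to 0.15 (adjusted p = 0.598). Leaving out the high library of vehicle, replicate 4, gave -0.06 (adjusted p = 0.856), and leaving out that of 50 mg/kg, also replicate 4, gave -0.31 (adjusted p = 0.328).

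Nkd1, a Dishevelled-binding inhibitor, fell on day 8, where 1 of 9 members passed beside 2.78% of all genes (2.02% downward and 0.763% upward). Of these calls over all genes 27.4% were upward, and 48.9% with TMM factors. Nkd1 had 8.18, 6.71, 6.35 and 6.56 TPM at 50 mg/kg, against 9.03, 9.50, 9.11 and 9.01 TPM in vehicle. The 4 libraries at 50 mg/kg lay below all vehicle libraries, which had a coefficient of variation of 2.5%. The log2 fold change was -0.36 (SE 0.09, adjusted p = 0.0302 by limma). The call was near the threshold: it was lost in 9 of 15 alternatives, in which the log2 fold change stayed between -0.37 and -0.32, among them both other scalings (adjusted p = 0.0593 with TMM factors and 0.0648 after quantile normalization) and a fit of these 2 groups alone (0.249). The call also ended without vehicle replicate 1 (0.0709), 2 (0.0894) or 3 (0.0553) or 50 mg/kg replicate 2 (0.0547), 3 (0.109) or 4 (0.0681). On day 4 Nkd1 had 10.7, 8.89, 11.5 and 10.8 TPM at 50 mg/kg, against 10.4, 9.54, 9.39 and 11.4 TPM in vehicle. The groups overlapped (0.04, 95% interval -0.15 to 0.22), and both other scalings turned the sign.

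Nkd2, the paralog of Nkd1 and the most abundant member, had wide spreads in each group. On day 4 it had 757, 781, 827 and 461 TPM at 50 mg/kg, against 645, 773, 393 and 699 TPM in vehicle. Each group held 1 library far below its other 3. On day 8 it had 589, 464, 663 and 744 TPM at 50 mg/kg, against 419, 484, 375 and 845 TPM in vehicle, where vehicle replicate 4 was the highest of the 8. The log2 fold changes were 0.18 (95% interval -0.39 to 0.75) and 0.27 (-0.30 to 0.84), with adjusted p of 0.726 and 0.655 by limma. Without day 4 vehicle replicate 3 the day 4 value was -0.03, and without day 8 vehicle replicate 4 the day 8 value was 0.52.

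At the membrane, Rnf43 and Znrf3, the 2 ligases that clear Frizzled from the surface, were lowest at 50 mg/kg on day 8. Rnf43 had 30.9, 37.1, 31.7 and 37.05 TPM there, against 40.4, 43.7, 41.5 and 37.9 TPM in vehicle, and Znrf3 had 19.99, 18.4, 17.2 and 19.9 TPM, against 22.7, 21.0, 24.1 and 20.7 TPM in vehicle. In both genes the groups did not overlap. With Nkd1, 3 of 9 members lay wholly below vehicle on day 8, beside 4.92% of all genes. The log2 fold changes were -0.25 for Rnf43 (SE 0.09, adjusted p = 0.138 by limma) and -0.22 for Znrf3 (SE 0.06, adjusted p = 0.0622), neither past the threshold. Znrf3 passed with a filter at 5 TPM (0.049) and without day 8 vehicle replicate 4 (0.029).

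On day 4 Rnf43 had 36.1, 45.8, 40.3 and 35.2 TPM at 50 mg/kg, against 40.6, 42.9, 41.2 and 51.8 TPM in vehicle. The groups overlapped, and the log2 fold change was -0.16 (adjusted p = 0.278). The average over both days gave Rnf43 a log2 fold change of -0.21 (SE 0.07, adjusted p = 0.0409 by limma). That call was lost in 12 of 23 alternatives, in which the size stayed between -0.21 and -0.17. They were no filter (adjusted p = 0.0658), the compared groups alone (0.0841), and leaving out day 4 vehicle replicate 2 (0.0521) or 4 (0.0925), day 4 50 mg/kg replicate 1 (0.0827), 3 (0.0588) or 4 (0.0741), day 8 vehicle replicate 1 (0.0664), 2 (0.078) or 3 (0.0713), or day 8 50 mg/kg replicate 1 (0.0651) or 3 (0.0901). Znrf3 on day 4 had 23.6, 25.9, 26.5 and 25.7 TPM at 50 mg/kg, against 22.95, 24.6, 23.1 and 25.8 TPM in vehicle (0.07, adjusted p = 0.498). Its groups overlapped.

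Apcdd1, a membrane glycoprotein that holds back Wnt signals at the receptor, had 37.7, 37.3, 32.4 and 24.7 TPM at 50 mg/kg on day 4, against 29.3, 28.9, 22.7 and 27.3 TPM in vehicle. Of the libraries at 50 mg/kg, 3 lay above all vehicle libraries and 1 within their range (0.27, adjusted p = 0.229 by limma). On day 8 it had 29.2, 21.2, 30.03 and 31.01 TPM at 50 mg/kg, against 20.7, 19.5, 25.7 and 27.0 TPM in vehicle. Again 3 lay above and 1 within (0.25, adjusted p = 0.349). The average over both days was 0.26 (SE 0.10, adjusted p = 0.0872), and it passed without day 4 50 mg/kg replicate 4 (0.0251), day 8 50 mg/kg replicate 2 (0.028) or day 8 vehicle replicate 4 (0.0391).

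Tnfrsf19, the TNF receptor family target, had 59.5, 63.2, 77.1 and 81.8 TPM at 50 mg/kg on day 4, against 69.3, 59.3, 53.2 and 75.8 TPM in vehicle. On day 8 it had 50.1, 37.6, 36.1 and 42.7 TPM at 50 mg/kg, against 55.0, 53.1, 66.1 and 37.7 TPM in vehicle. The groups overlapped on both days, on day 8 through vehicle replicate 4. The log2 fold changes were 0.13 (adjusted p = 0.647) and -0.32 (adjusted p = 0.270), and the day 8 value was -0.47 with an adjusted p of 0.0492 without vehicle replicate 4. Without that library 4 of 9 members passed on day 8, with Notum higher and Nkd1, Znrf3 and Tnfrsf19 lower, and 7.51% of all genes passed (1176 genes, against 438 with all libraries).

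Of 10 basal epithelial markers, 4 passed upward on day 8, beside 0.763% of all genes, while 5 had positive and 5 negative log2 fold changes (median 0.05, lowest -0.40). Their summed level was 4187 to 5248 TPM at 50 mg/kg and 3037 to 4007 TPM in vehicle. Within groups, deviations of the basal markers had a Pearson r of -0.66 with Tnfrsf19, -0.47 with Nkd1, -0.36 with Znrf3 and 0.17 with Rnf43 over the 24 libraries. For these 4 genes in the same order, the proliferation markers had 0.57, 0.28, 0.35 and -0.06. The skeletal muscle markers had 0.54, 0.33, 0.38 and 0.15. Proliferation markers summed to 372 to 610 TPM at 50 mg/kg and 323 to 706 TPM in vehicle on day 8. Of these 7 markers 0 passed the threshold in limma and 0 had an unadjusted p under 0.05, beside 17.9% of all genes. The same 17.9% stands beside the endothelial and macrophage counts that follow. Endothelial markers had a median log2 fold change of -0.49 on day 8, with 0 of 8 past the threshold in limma and 6 at an unadjusted p under 0.05, and they summed to 136 to 208 TPM at 50 mg/kg and 146 to 302 TPM in vehicle. Macrophage markers were positive in 7 of 8, with 0 past the threshold and 4 at an unadjusted p under 0.05, and they summed to 878 to 1519 TPM at 50 mg/kg and 447 to 1303 TPM in vehicle. Vehicle replicate 4 alone gave 1 end of these vehicle ranges. It had 323 TPM for proliferation (479 to 706 TPM in the other vehicle libraries of day 8). For endothelium it had 302 TPM (146 to 199 TPM in the others), and for macrophages 1303 TPM (447 to 764 TPM in the others). Fold changes of the markers without it are not given here. In the average over both days 3 of 8 macrophage markers passed upward, beside 6.22% of all genes, and 1 of 8 endothelial markers downward, beside 5.77%. Within groups Rnf43 had a Pearson r of -0.50 with the macrophage markers, -0.53 with the fibroblast markers (0 of 9 past the threshold on day 8) and -0.41 with the endothelial ones, and Znrf3 had -0.35 with the macrophage and -0.33 with the endothelial markers. The part of these markers in the lower levels of Nkd1, Rnf43, Znrf3 and Tnfrsf19 was not tested.

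At 25 mg/kg no member passed against vehicle on either day or in the average, and limma called 0 of the 15736 genes (0%) in each of these comparisons. At an unadjusted p under 0.05 there were 724 genes on day 4, 468 on day 8 and 347 in the average, and 0 of the 9 members in each. Log2 fold changes lay between -0.17 (Tnfrsf19) and 0.42 (Notum) on day 4 and between -0.07 (Znrf3) and 0.13 (Axin2) on day 8. Without day 8 vehicle replicate 4 the day 8 values lay between -0.16 (Tnfrsf19) and 0.37 (Notum, 0.07 with all libraries), and still no member passed; 1 had an unadjusted p under 0.05 in the average (Notum, 0.39), beside 6.42% of all genes. Notum had 16.8, 23.1, 21.5 and 20.2 TPM at 25 mg/kg on day 4, and its group means that day were 15.4 ± 4.68 TPM in vehicle, 20.4 ± 2.70 TPM at 25 mg/kg and 31.1 ± 7.66 TPM at 50 mg/kg (SD, n = 4 each). The 95% interval of its difference at 25 mg/kg was -0.14 to 0.99. Apcdd1 at 25 mg/kg on day 4 had 31.3, 33.2, 30.4 and 33.5 TPM and lay wholly above its vehicle libraries, as 3.06% of all genes did (0.24, adjusted p = 0.914). On day 8 its mean at 25 mg/kg was 23.3 ± 2.93 TPM, against 23.2 ± 3.69 TPM in vehicle.

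Set against each other, the 2 doses gave no member past the threshold by limma. On day 4, 2.15% of all genes passed for 50 against 25 mg/kg, and Wif1 came nearest among the members (log2 fold change 0.52, SE 0.16, adjusted p = 0.0983). Wif1 averaged 379 ± 93.7 TPM at 50 mg/kg and 259 ± 18.02 TPM at 25 mg/kg (SD, n = 4 each), and it passed without 50 mg/kg replicate 2 (0.69, adjusted p = 0.00805). Notum at 50 mg/kg lay wholly above 25 mg/kg, as 5.42% of all genes did (0.56, adjusted p = 0.36). On day 8, where 1.08% of all genes passed, Nkd1 averaged 6.95 ± 0.83 TPM at 50 mg/kg and 9.04 ± 0.69 TPM at 25 mg/kg (-0.34, SE 0.09, adjusted p = 0.0582). Its call was made without 50 mg/kg replicate 1 (-0.41, adjusted p = 0.0229). Nkd1, Rnf43 and Znrf3 at 50 mg/kg lay wholly below 25 mg/kg on day 8, 3 of 9 members beside 6.04% of all genes. Of the day 8 calls over all genes, 21.2% were upward, and 49.8% with TMM factors. At an unadjusted p under 0.05 there were 4 of 9 members on day 8, beside 16.7% of all genes, and 1 of 9 on day 4, beside 14% of all genes. These comparisons share libraries with those against vehicle.

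Between days, vehicle tumours gave no member past the threshold, and limma called 0 of all genes (0%), with 1749 at an unadjusted p under 0.05 and 0 of these among the members. All 9 members had negative log2 fold changes for day 8 against day 4, also with TMM factors and after quantile normalization, with a median of -0.13 against 0.01 over all genes. The lowest belonged to Axin2, with 38.95 ± 7.03 TPM on day 8 and 48.2 ± 6.31 TPM on day 4 (SD, n = 4 each; -0.31, adjusted p = 0.477), and to Tnfrsf19, with 53.0 ± 11.7 TPM on day 8 and 64.4 ± 10.1 TPM on day 4 (-0.29, adjusted p = 0.491). Without day 8 vehicle replicate 4 all 9 were still negative, but Tnfrsf19 was at -0.14 and the lowest were Nkd2 (-0.52, against -0.27 with all libraries), Axin2 (-0.42) and Notum (-0.31), with adjusted p of 0.621, 0.585 and 0.732. With all libraries the value of Notum was -0.01, and it turned positive without 5 single libraries.

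The effect of 50 mg/kg was also compared between days. The day 8 effect minus the day 4 effect was negative for 8 of 9 members (7 with TMM factors or after quantile normalization), with a median of -0.29 against -0.06 over all genes. No member passed, beside 1.44% of all genes, and 3 had an unadjusted p under 0.05, beside 16.1% of all genes. These were Nkd1 (-0.40, SE 0.12, adjusted p = 0.114 by limma), Znrf3 (-0.29, SE 0.09, adjusted p = 0.106) and Tnfrsf19 (-0.45, SE 0.22, adjusted p = 0.31). For Notum the difference was -0.31 (95% interval -1.11 to 0.49) and for Wif1 it was -0.37 (-0.83 to 0.09). Without day 8 vehicle replicate 4 the difference of Notum was -0.01 (-0.71 to 0.68) and that of Wif1 -0.42 (-0.90 to 0.06), 7 of 9 members were negative, and the median was -0.13, against -0.03 over all genes. The pass of these 2 genes on day 4 and not on day 8 is thus not shown to differ between days.

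Within the groups, some members varied together. Deviations of log2(TPM + 1) from the group means were correlated over the 24 libraries, as a description; the libraries share their groups and their composition. Nkd2 and Notum had a Pearson r of 0.88 (Spearman 0.88), Axin2 and Nkd2 had 0.81 and Axin2 and Notum 0.66. Apcdd1 had 0.68 with Nkd2, 0.58 with Notum and 0.54 with Axin2. Tnfrsf19 had 0.73 with Znrf3 and 0.58 with Nkd1, while Nkd1 and Znrf3 had 0.26. Rnf43 had 0.54 with Axin2, but 0.10 with Nkd2 and -0.07 with Notum. Wif1 had 0.26 with Notum and 0.06 with Nkd2, although Wif1 and Notum were the 2 members that rose on day 4. The paralogs Nkd1 and Nkd2 had 0.08, and Rnf43 and Znrf3 had 0.33. Without the 2 libraries farthest from the median of the gene named first, the values were 0.83 for Nkd2 and Notum, 0.86 for Axin2 and Nkd2 and 0.67 for Znrf3 and Tnfrsf19. With the proliferation markers, Axin2 had -0.58, Nkd2 -0.60, Notum -0.67 and Apcdd1 -0.27. With the endothelial markers, Axin2 had 0.28, Nkd2 0.53, Notum 0.57 and Apcdd1 0.62. The part of these markers in the relations among the members was not tested.

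**Figure D3:**
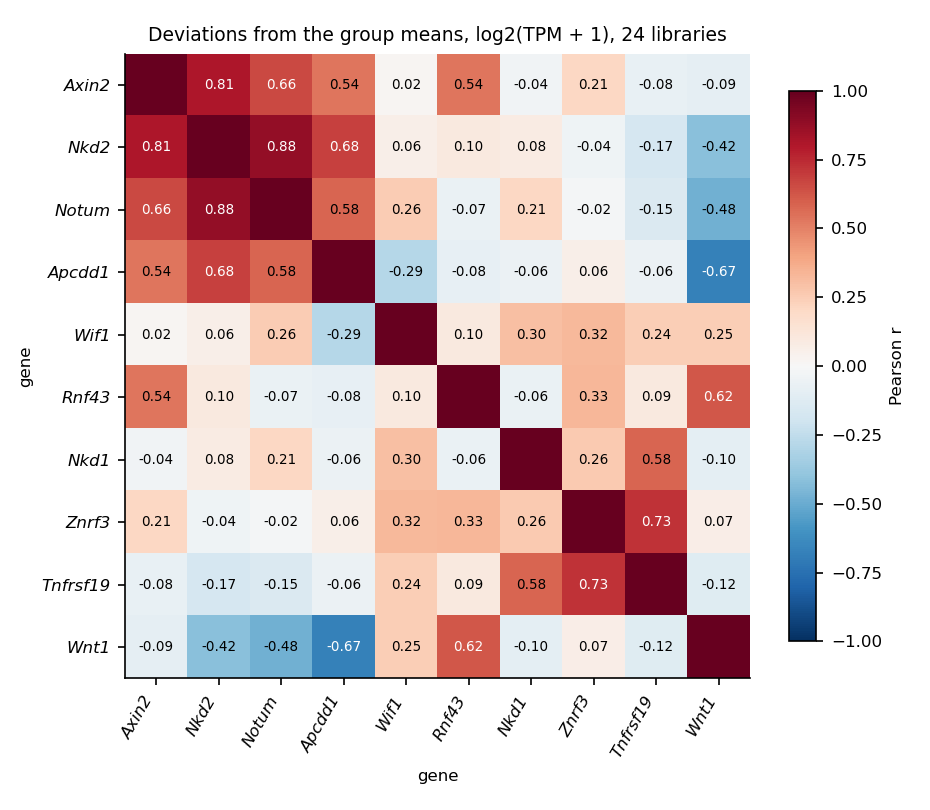
Pearson r between pairs of members, and with Wnt1, over 24 libraries, computed on deviations of log2(TPM + 1) from the group means. Axin2, Nkd2, Notum and Apcdd1 form a block with values of 0.54 to 0.88, and Rnf43 has 0.54 with Axin2 alone of these. Tnfrsf19 has 0.73 with Znrf3 and 0.58 with Nkd1, while Nkd1 and Znrf3 have 0.26. The lowest value is -0.67 between Apcdd1 and Wnt1.

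Wnt1, the ligand gene of the transgene, was read at 66.2, 166, 57.6 and 84.2 TPM at 50 mg/kg on day 8, against 164, 186, 119 and 94.6 TPM in vehicle. At 50 mg/kg, 3 libraries lay below every vehicle library and 1 within their range (-0.66, SE 0.29, adjusted p = 0.231 by limma), and without 50 mg/kg replicate 2 Wnt1 passed (-0.98, adjusted p = 0.0458). On day 4 Wnt1 had -0.14 (adjusted p = 0.807). Transgene and native Wnt1 transcripts cannot be told apart in these values. In deviations from the group means, Wnt1 had a Pearson r of -0.67 with Apcdd1 (-0.69 without 2 libraries), -0.48 with Notum (-0.39) and -0.42 with Nkd2 (-0.32), but 0.62 with Rnf43 (0.64) and -0.09 with Axin2. Wnt1 also had -0.77 with the endothelial markers and 0.60 with the basal and 0.59 with the luminal ones. The part of these markers in the relations of Wnt1 with the members was not tested.

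**Figure D4:**
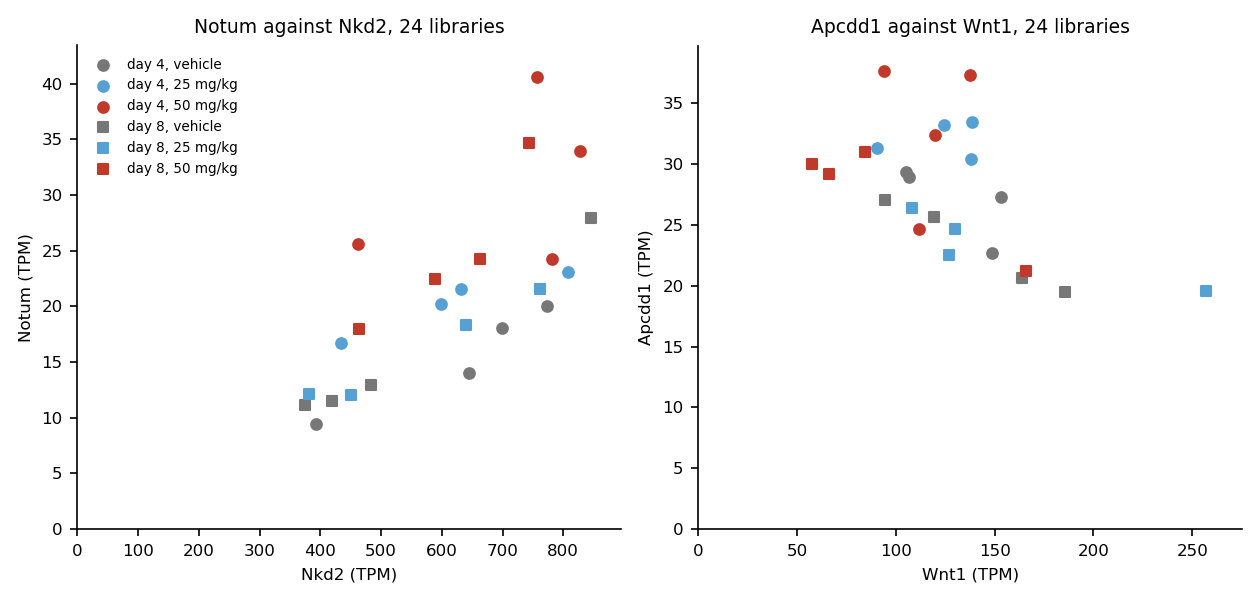
Levels in TPM of Notum against Nkd2 and of Apcdd1 against Wnt1 in each of the 24 libraries, by day (circle or square) and dose (colour). Libraries with more Nkd2 have more Notum, and Apcdd1 is lower in libraries with more Wnt1.

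Deviations over the 24 libraries were compared among 10693 genes with a mean of 5 TPM or more, with predicted genes left out. The genes most like Axin2 were Rerg (r = 0.93), Myh14 (0.89), Glcci1 (0.89), Tbc1d10a (0.87) and Dsg2 (0.87). For Notum they were Flrt2 (0.91), Eps15 (0.90), Rusc1 (0.89), Strn3 (0.89) and Klhl2 (0.89). No other member was among the genes listed, but Nkd2 came near, with 0.882 for Notum against 0.886 for Klhl2.

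Some other genes of the pathway also passed at 50 mg/kg. Of 39 further genes described as β-catenin targets, 38 were in the table and 26 passed the filter. On day 4, 1 rose and 1 fell, 2 of 26 beside 9.26% of all genes, with a median log2 fold change of 0.11, against 0.03 over all genes. Trabd2b, whose product is a protease that inactivates Wnt proteins, rose to 6.23 TPM at 50 mg/kg, against 3.74 TPM in vehicle (0.60, adjusted p = 0.0151 by limma, 0.0504 without 50 mg/kg replicate 1). Ccnd1, the cyclin D1 gene, had 511, 547, 503 and 533 TPM at 50 mg/kg, against 642, 666, 684 and 674 TPM in vehicle. The log2 fold change was -0.35 (adjusted p = 0.0351 by limma). That call was lost without any 1 of the 8 libraries (adjusted p = 0.0515 to 0.0952) and with no filter (0.0651). On day 8 Ccnd1 did not pass (-0.26, adjusted p = 0.175), though it did without vehicle replicate 4 (-0.42, adjusted p = 0.000812). Ccnd1 overlaps LTO1 on the opposite strand (28.4 TPM on average), and since the strand setting of the counting is not given its value is uncertain. On day 8, 0 rose and 2 fell, beside 2.02% of all genes that fell, with a median of -0.04: the nitric oxide synthase gene Nos2 averaged 0.745 TPM at 50 mg/kg and 3.02 TPM in vehicle (-1.17, adjusted p = 0.000378), and the transcription factor gene Sox4 averaged 95.4 TPM at 50 mg/kg and 130 TPM in vehicle (-0.45, adjusted p = 0.000416). Both were called in each fit with a library left out, and both had an adjusted p of 0.104 with the compared groups only.

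Of the widely used targets other than Ccnd1, the genes Lef1, Tcf7, Lgr5 and Myc did not pass on either day. The log2 fold changes on day 4 and day 8 were 0.66 and 0.14 for Lef1 and 0.11 and 0.08 for Tcf7. They were 0.07 and 0.51 for the stem cell receptor gene Lgr5 and -0.16 and -0.06 for Myc, with adjusted p from 0.103 to 0.894 by limma. Lgr5 was low, at 1.31 to 5.43 TPM over the 24 libraries. Lef1 passed on day 4 without 50 mg/kg replicate 4 (0.89, adjusted p = 0.0294), and Lgr5 on day 8 without vehicle replicate 4 (0.78, adjusted p = 0.028). The signs of Lgr5 and Tcf7 on day 4, and of Lef1, Tcf7 and Myc on day 8, turned without single libraries. The 2 TCF family genes were far apart in level. Tcf7 was read at 127 to 285 TPM and Lef1 at 0.20 to 2.65 TPM over the 24 libraries.

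Of 52 pathway components, 48 passed the filter. On day 4, 4 of the 48 rose and 4 of the 48 fell. Of all genes, 4.95% rose and 4.31% fell, 9.26% in either direction. The median of the components was 0.04, against 0.03 over all genes. Wnt7b, a ligand gene, averaged 24.6 TPM at 50 mg/kg and 11.4 TPM in vehicle (1.05, adjusted p = 0.0405), and the receptor gene Fzd1 averaged 73.2 TPM at 50 mg/kg and 44.4 TPM in vehicle (0.72, adjusted p = 0.00877). Wls, which carries Wnt proteins to the surface (0.22), and the kinase gene Csnk1a1 (0.22) rose as well. The β-catenin antagonist gene Cby1 (-0.39), the corepressor gene Tle4 (-0.34), the receptor gene Fzd2 (-0.29) and Dvl2, a Dishevelled gene (-0.23), fell, with the value of Dvl2 uncertain because Acadvl lies opposite (60.4 TPM on average). The calls of Fzd1 and Cby1 were kept in 15 of 15 alternatives. Those of the other 6 were lost without single libraries: Csnk1a1 without vehicle replicate 1 or 50 mg/kg replicate 3 (adjusted p up to 0.0548), Fzd2 without vehicle replicate 2, 3 or 4 or 50 mg/kg replicate 2 or 4 (up to 0.0741), Wnt7b without vehicle replicate 1, 3 or 4 or 50 mg/kg replicate 1, 3 or 4 (up to 0.114), Tle4 without any 1 vehicle library or 50 mg/kg replicate 3 or 4 (up to 0.142), Dvl2 without any 1 library (up to 0.138) and Wls without vehicle replicate 1, 3 or 4 or 50 mg/kg replicate 1, 2 or 3 (up to 0.148). Wls and Csnk1a1 were also lost with TMM factors, at adjusted p of 0.0886 and 0.0778, and Wls after quantile normalization (0.0721). With no filter, Wnt7b (0.0762), Tle4 (0.0722), Dvl2 (0.066) and Wls (0.0705) were lost. With the compared groups only, Fzd2 (0.0742), Tle4 (0.082), Dvl2 (0.0589) and Wls (0.0594) were lost. On day 8, 0 rose and 2 of 48 fell, beside 2.02% of all genes: the kinase gene Gsk3b (-0.29, adjusted p = 0.0238) and the tankyrase gene Tnks (-0.31, adjusted p = 0.0188), with a median of -0.09, against -0.02 over all genes. Gsk3b was lost without vehicle replicate 2 or 3 or 50 mg/kg replicate 1, 2 or 3 (adjusted p up to 0.0674), and Tnks without vehicle replicate 1 or 2 or 50 mg/kg replicate 1 (up to 0.065). Both were lost with the compared groups only (0.277 and 0.273). Ctnnb1, which encodes β-catenin, had a log2 fold change of 0.21 on day 4 (adjusted p = 0.166) and -0.11 on day 8 (0.607); it overlaps Ulk4 (1.46 TPM) on the opposite strand.

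**Figure D5:**
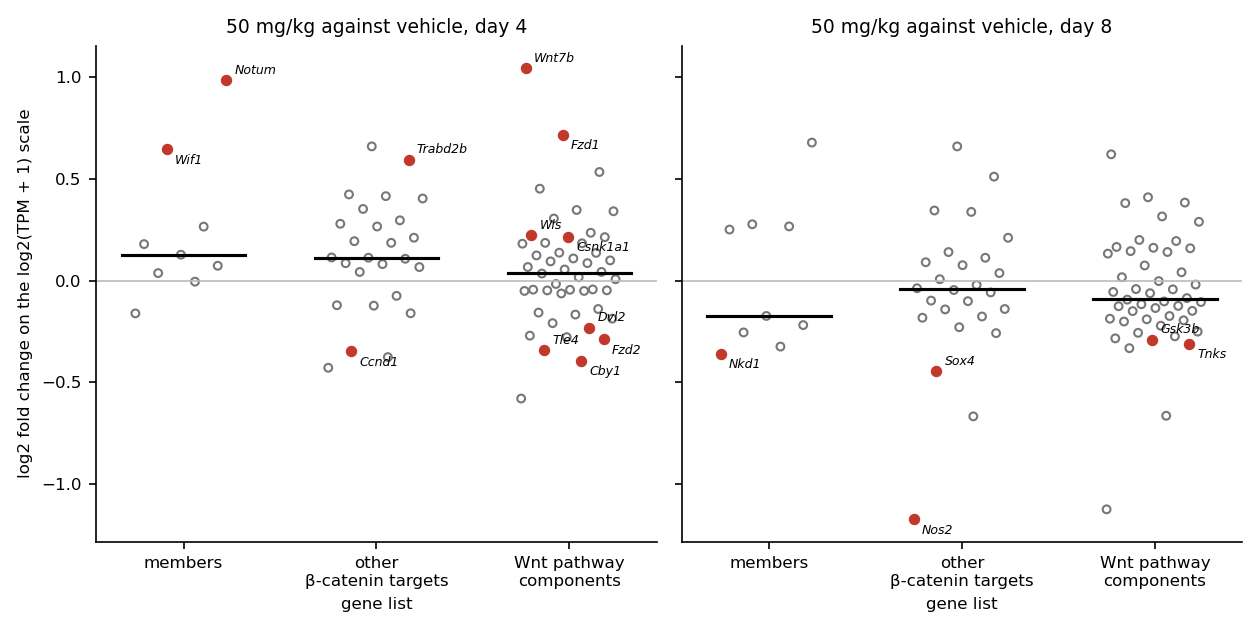
Log2 fold change at 50 mg/kg over vehicle for the members, for other β-catenin target genes and for pathway components, 1 point per gene, with the list median as a line; filled red points passed an adjusted p of 0.05 in limma. Notum and Wif1 lie at the top of the members on day 4, and on day 8 the passing genes of all 3 lists lie below 0.

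Genes that overlap the members in the genome had low levels where the table held them. On build GRCm38 and in GENCODE M21, Notum spans chromosome 11 from 120653788 to 120661175 on the minus strand, with 7 to 12 exons per protein-coding transcript. Axin2 (108920349 to 108950783, plus strand), Rnf43 (87662722 to 87735539, plus) and Znrf3 (5276324 to 5444847, minus) lie on chromosome 11 too. Wif1 spans chromosome 10 from 121033960 to 121100650 on the plus strand, Nkd1 chromosome 8 from 88521354 to 88594884 on the plus strand, Nkd2 chromosome 13 from 73818534 to 73847631 on the minus strand, and Tnfrsf19 chromosome 14 from 60963875 to 61046490 on the minus strand. The overlapping genes in the table averaged at most 0.60 TPM (1110028F11Rik, inside Rnf43). Notumos, antisense to Notum, averaged 0.24 TPM.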

How the data were processed

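RNA was measured in 24 tumour libraries. The authors deposited 1 table of TPM values per gene and library, made with bcl2fastq, Trimmomatic 0.36, STAR 2.5.0c and RSEM 1.2.31 on build GRCm38 (mm10), per the submitters' processing notes. The library kit was strand-specific per the labels' protocols; annotation, settings and the strand used in counting were not given in the sources used here. TPM carry no read depth and are relative, so that a rise of abundant genes lowers all others.

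The filter kept 15736 genes with at least 1 TPM in 4 or more libraries. Values as log2(TPM + 1), a scale that understates changes of low genes, were fitted as 6 group means over 24 libraries with limma 3.58.1 in R 4.3.3 (mean-variance trend, 18 residual degrees of freedom). P-values are two-sided, with Benjamini-Hochberg adjustment over all genes tested. Since separate animals are not stated, they measure only the spread between samples, part of which can be technical. The members and lists were chosen with earlier results of these data known. Named were the 10 members, from 2 pathway lists up to 6 passing genes in each direction and 7 genes always, and the 5 genes most like Axin2 or Notum. Alternatives were TMM factors (unweighted, on TPM), quantile normalization, another or no filter, a pseudocount of 0.1, the compared groups only, a replicate block and leaving out each library. The fit was tested on simulated data. Of 47729 gene identifiers, 47310 were in GENCODE M21.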

Additional observations from a re-analysis of the deposited data

Results flagged for a closer look

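Among 54 sets of 4 libraries (9 members in 6 groups), 3 held a library whose gap to its nearest neighbour was unusually large for the range of its group, and chance gives about 1 in 20. Axin2 was at 45.4 TPM in 50 mg/kg replicate 4 of day 8, far above the other 3 libraries (30.4 to 31.5 TPM). Notum was at 27.92 TPM in vehicle replicate 4 of day 8, far above its other 3 (11.1 to 12.9 TPM). Rnf43 was at 37.59 TPM in 25 mg/kg replicate 1 of day 8, below its other 3 (41.8 to 42.1 TPM).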

How the results depend on the processing

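Over all 9 members in 10 comparisons, 1454 of 1566 recomputed values kept their direction and side of the threshold, 27 lost a call, 10 gained one and 75 turned sign. Of these, 57 belong to 14 values below 0.1 in size that are not listed singly here, and 18 to 5 values of Axin2, Nkd1, Nkd2 and Notum. For 50 mg/kg against vehicle on day 4, 2 members passed, but 1 with no filter. On day 8, 1 passed, but 0 with TMM factors, 0 after quantile normalization, 0 with the compared groups only and 2 with a filter at 5 TPM. Leaving out single libraries gave 0 to 2 members on day 4, 0 to 4 on day 8 (4 without vehicle replicate 4), and 0 to 1 for 50 against 25 mg/kg on either day, against 0 with all libraries. The average over both days gave 2 to 4 members, against 3. Over all genes, the same gave 696 to 1305 calls on day 4 (1457 with all libraries), 180 to 1176 on day 8 (438), 1227 to 3360 in the average (1887), 148 to 353 for 50 against 25 mg/kg on day 4 (339), 38 to 293 on day 8 (170), 92 to 602 for the difference between days (226), and 0 to 1 for 25 mg/kg on day 4, for its average and for the days in vehicle (0 each). With the compared groups only, calls over all genes were 12 on day 8, 1033 in the average, 1 for 25 mg/kg on day 8, 91 for 50 against 25 mg/kg on day 8 and 68 for the difference between days, which was 149 with TMM factors. Signs of members turned for values of up to 0.18 in size (Nkd2 on day 4). Nkd1 on day 4 was 0.04 and became -0.0033 with TMM factors and -0.016 after quantile normalization. Without single libraries, day 4 values ranged from -0.13 to 0.11 for Axin2, from -0.0064 to 0.11 for Nkd1 and from -0.030 to 0.37 for Nkd2, the day difference of Nkd2 from -0.11 to 0.34, and Notum between days in vehicle from -0.31 to 0.12. Likewise, day 4 values ranged from -0.14 to 0.23 for Lgr5 and from -0.00043 to 0.24 for Tcf7, and day 8 values from -0.0047 to 0.30 for Lef1, from -0.21 to 0.014 for Myc and from -0.039 to 0.20 for Tcf7. The cause of these changes was not tested.

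With the replicate number as a block, the members called stayed at 2 on day 4, 1 on day 8 and 3 in the average, and the block changed no call of a member; Wls on day 4 was lost (adjusted p = 0.065), and the difference between days gave 343 genes, against 226. The numbers are not stated to pair samples: over 60 pairs of libraries with the same number, deviations had an r of -0.33 to 0.42 (median 0.02), and in 20 of 60 the library of the same number was the closest of its group. On day 4, however, the macrophage sum fell from replicate 1 through to replicate 4 in every group, and the fibroblast sum was highest in replicate 1. TPM hold no depth, which limits what can be said of Sp5 and other low genes.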
